A study of Mus musculus with 15 samples.

Results

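The cornified envelope genes code for the protein shell that replaces the plasma membrane of a keratinocyte as it dies at the skin surface. They were chosen by symbol. Every row whose symbol begins with Sprr or Lce was taken, with the 9 single genes Lor, Ivl, Flg, Flg2, Hrnr, Rptn, Crct1, Crnn and Tgm1, and a row was kept where its level reached 1 CPM in at least 1 library. CPM is a gene's count per 1000000 counts of its library, after scaling by TMM, the trimmed mean of M-values. The symbols matched 47 of 30281 named genes (17 Sprr, 21 Lce and 9 single genes), and 44 of them passed the floor (14 Sprr, 21 Lce and 9 single genes). Below it were Sprr2c-ps, listed at 0 in every library, Sprr3, with at most 0.262 CPM, and Sprr2j-ps, with at most 0.898 CPM. Just inside it were Sprr2b, with at most 1.28 CPM, and Sprr2k, with at most 1.54 CPM, and both passed only through libraries taken after day 0. All 44 genes also passed edgeR's expression filter and were tested.

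RNA was sequenced from the skin of C57BL/6 mice on day 0, 1, 3, 5 and 7 of a wounding course, with 3 libraries at each time. The labels give the wound stress to all 15 libraries, day 0 included, and the time is the only label that differs between them. Skin was freed of muscle and fat before RNA extraction, per the labels' protocols. Whether libraries of 1 time stem from different mice is not stated in the labels. The p-values then describe the spread among these samples alone, and that spread may be technical.

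Library totals ran from 38062562 to 60450396 estimated counts, and the 44 genes together took 0.261% to 0.698% of them. Epidermal markers were present in all libraries: the sum over 5 basal keratinocyte genes ran from 2258 to 9014 CPM and that over 5 suprabasal genes from 2417 to 5908 CPM. Skeletal muscle genes, 4 in number, still summed to 1561 to 7788 CPM. Day 5 replicate 2 and day 7 replicate 3 were rich in hair RNA, with 14888 and 17996 CPM over 9 hair shaft and root sheath genes against at most 1669.7 CPM in the other 13 libraries. Day 0 replicate 1 had 2206 CPM over the stressed keratinocyte genes Krt6a, Krt6b, Krt16 and Krt17, against 364 and 486 CPM in the other day 0 libraries. In tissue RNA, fewer cells of a type and less RNA per cell cannot be told apart, and this holds for every level given here.

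The envelope is built in layers. Involucrin (Ivl) and the membrane-linked plakins form an early scaffold, transglutaminases such as Tgm1 cross-link proteins to it, loricrin (Lor) and the small proline-rich proteins (Sprr) fill and bridge it, and the late cornified envelope proteins (Lce) are added near the surface. Filaggrin and its relatives (Flg, Flg2, Hrnr, Rptn, Crnn) are S100 fused-type proteins, several of which bundle keratin filaments or join the envelope. Sprr genes are known to be induced in stressed or damaged epithelium, while most Lce genes belong to ordinary terminal differentiation. In the annotation, 43 of the 44 genes lie on chromosome 3, in the order Lor, the Sprr genes, Ivl, Lce6a, most Lce1 genes, the Lce3 genes, Crct1, Lce1m and the S100 fused-type genes, and Tgm1 is on chromosome 14.

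The fitted fold changes of the Sprr genes were positive in nearly every comparison with day 0. Over the whole course 5 of the 14 passed the test, against 13.9% of all genes tested. These 5 were the 3 near-identical Sprr2a copies, whose sum passed no single comparison with day 0, and Sprr2b and Sprr2k, which rested on few reads. The fold changes of the Lce genes were positive for 20 of 21 on days 5 and 7. None of the 21 Lce genes passed in any comparison in edgeR with all libraries. The difference between the families was not tested. The 3 Sprr2a copies together went from 69.8 ± 52.3 CPM (SD, n = 3) at day 0 to 1195 ± 226 CPM on day 3. The 14 Lce1 genes together had 813 ± 155 CPM at day 0, 714 ± 436 CPM on day 3 and 1077 ± 326 CPM on day 5. A gene was called when its adjusted p was under 0.05 in edgeR's quasi-likelihood test over all 17136 genes. On day 1, 1 of 44 was called (Sprr2a3), where 7.58% of all genes tested were called and 4.22% were called higher. On day 3 there were 3 (Sprr2a1, Sprr2a3 and Sprr2k), against 0.788% called and 0.595% called higher. On day 5 there was 1 (Sprr2k), against 0.502% and 0.21%, and on day 7 there were 3 (Rptn, Sprr2b and Sprr2k), against 7.05% and 3.1%. All of these were higher than at day 0. Over the whole course 7 of 44 were called (Crct1, Rptn, Sprr2a1, Sprr2a2, Sprr2a3, Sprr2b and Sprr2k), against 13.9% of all genes. As shares of the 44 these counts are 2.27%, 6.82%, 2.27% and 6.82% on days 1, 3, 5 and 7 and 15.9% over the course. The share over the course is near that of all genes. Under alternative processing the call over the course held in 8 fits and was lost in 14 for Crct1 and for Rptn. For Sprr2a2 it held in 9 and was lost in 12. It was lost in 2 for Sprr2a1, for Sprr2a3 and for Sprr2b, and in none for Sprr2k. Sprr2b and Sprr2k entered the set on levels reached after day 0, which favours a call, and without them 1, 2, 0 and 1 of 42 were called on days 1, 3, 5 and 7 and 5 over the course, an alternative chosen after seeing the data. The 4 comparisons with day 0 share the day 0 libraries.

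**Figure D1:**
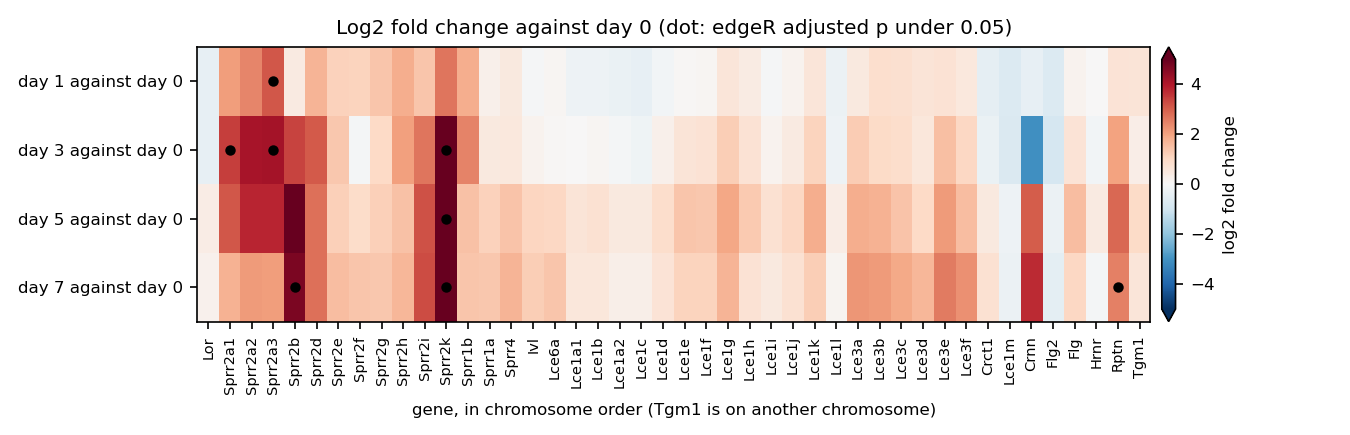
Log2 fold change of the 44 genes (columns, in chromosome order) against day 0 on days 1, 3, 5 and 7 (rows), with colours saturating beyond 5 in either direction. A dot marks an edgeR adjusted p under 0.05, and the 8 dots fall on Sprr2a1, Sprr2a3, Sprr2b, Sprr2k and Rptn.

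By direction alone, all 14 Sprr genes had a positive log2 fold change on days 1, 5 and 7 and 13 of 14 on day 3. All Sprr counts and medians in this paragraph include Sprr2b and Sprr2k, whose entry on levels reached after day 0 favours a rise. Their median log2 fold change was 1.54 on day 1, 2.58 on day 3, 2.11 on day 5 and 1.73 on day 7. The 21 Lce genes had medians of 0.10, 0.55, 1.05 and 1.10 at the same times, and the 9 single genes -0.04, -0.14, 0.95 and 0.76. Over all genes tested the median stayed between -0.01 and 0.02. Every library of the later time lay above every day 0 library for 6 of 44 genes on day 1 (19.8% of all genes tested), 10 on day 3 (13.1%), 18 on day 5 (12.3%) and 24 on day 7 (13.9%). The reverse held for 4 of 44 on day 1 (Crct1, Lce1a2, Lce1m and Lor, against 18% of all genes) and for 0 on days 3, 5 and 7 (12.4%, 13.8% and 15.3%). The 10 on day 3 were 9 of 14 Sprr genes and Rptn, and 0 of 21 Lce genes. The 24 on day 7 were 6 Sprr genes, 14 Lce genes and 4 single genes. The highest mean fell on day 3 for 6 Sprr genes and on day 7 for 6 others, while 13 of 21 Lce genes were highest on day 5 and 7 on day 7.

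Sprr2a1, Sprr2a2 and Sprr2a3 code for nearly the same small proline-rich protein, and their transcripts share most of their sequence. Of the 31-base stretches in their GENCODE M21 transcripts, 96.9% of those of Sprr2a1, 97.8% of those of Sprr2a2 and 73.6% of those of Sprr2a3 also occur in a transcript of another gene. The split of reads among these rows is therefore uncertain, and their sum is the safer value. The sum was 38.7, 40.5 and 130.1 CPM at day 0 and 94.7, 158 and 898 CPM at day 1, with day 1 replicate 3 far above the others of its time. On day 3 it reached 1336, 935 and 1315 CPM, on day 5 it was 1166, 327 and 1338 CPM, and on day 7 it was 373, 214 and 307 CPM. All libraries of days 3, 5 and 7 lay above all of day 0, while day 1 overlapped day 0. The lowest day 5 value belonged to the hair-rich day 5 replicate 2. Tested as 1 row, the sum had a log2 fold change of 2.46 ± 0.81 (SE) on day 1, 4.10 ± 0.87 on day 3, 3.76 ± 0.85 on day 5 and 2.09 ± 0.80 on day 7. The adjusted p-values of edgeR were 0.0787, 0.0529, 0.0667 and 0.116, so no single comparison passed. Over the course it did, with an edgeR adjusted p of 0.0348.

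**Figure D2:**
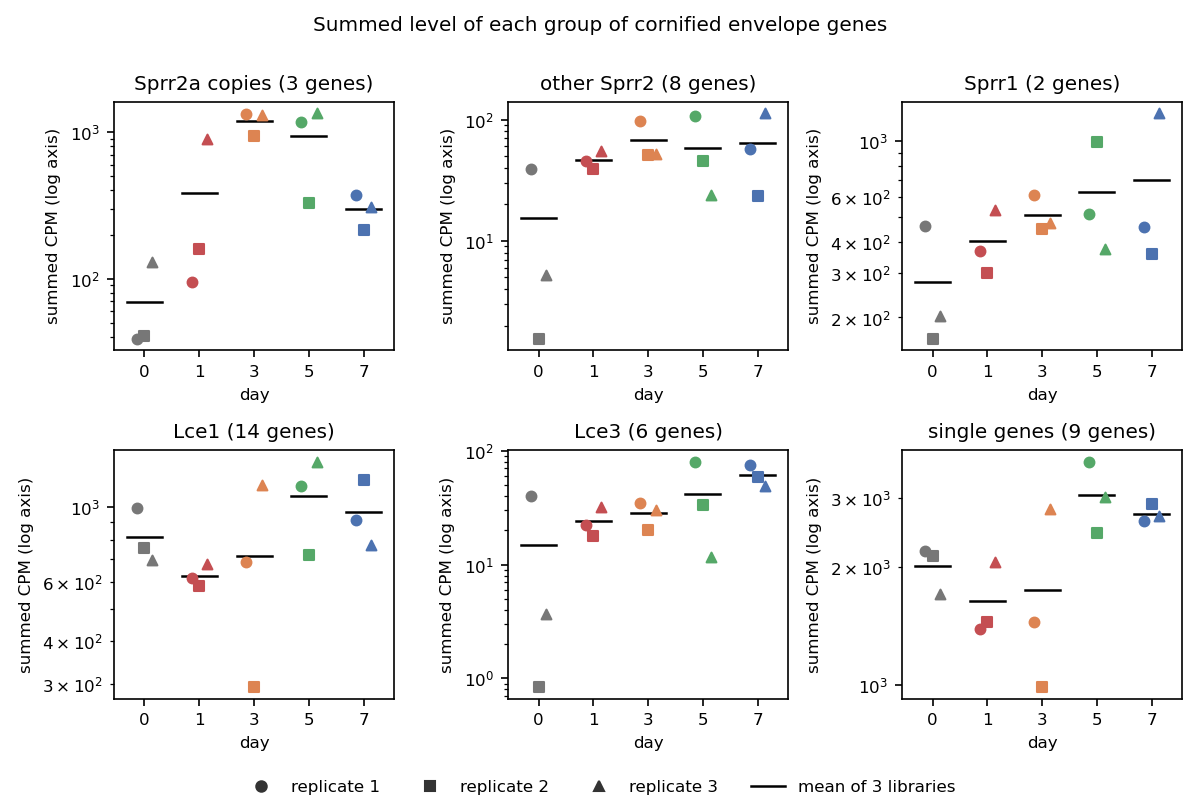
Summed CPM (log axes) of 6 groups of genes in each library by day, with 1 symbol per replicate and a bar at the mean of 3. The Sprr2a copies reach 935 to 1336 CPM on day 3 from 38.7 to 130.1 CPM at day 0, while Lce1 stays between 293 and 1359 CPM throughout.

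As separate rows, Sprr2a2 held nearly all of the copies' counts. It had 33.7, 36.6 and 120.4 CPM at day 0, 83.2, 139.7 and 824 CPM on day 1, 1251, 859.8 and 1229 CPM on day 3, 1094, 304 and 1241 CPM on day 5 and 347, 193 and 285 CPM on day 7. Its day 3 libraries lay above all day 0 and day 1 libraries, with an edgeR adjusted p of 0.057 against day 0. Sprr2a1 had 3.49, 2.96 and 6.31 CPM at day 0, 6.54, 8.78 and 38.6 CPM on day 1, 46.9, 45.3 and 49.0 CPM on day 3, 45.9, 13.3 and 52.2 CPM on day 5 and 15.5, 14.7 and 13.0 CPM on day 7. None of its later libraries overlapped day 0, and it rose by a log2 fold change of 3.46 ± 0.66 on day 3 (edgeR adjusted p 0.0421). Sprr2a3 had 1.49, 0.961 and 3.41 CPM at day 0, 4.92, 9.73 and 35.8 CPM on day 1, 38.3, 29.8 and 37.6 CPM on day 3, 26.5, 9.98 and 45.5 CPM on day 5 and 10.6, 5.96 and 8.68 CPM on day 7. It rose by a log2 fold change of 3.10 ± 0.75 on day 1 (edgeR adjusted p 0.0308) and 4.16 ± 0.78 on day 3 (adjusted p 0.0393). Its groups did not overlap at any later time. Both calls on day 3 were lost when day 0 replicate 2, day 0 replicate 3 or any day 3 library was left out. Both were also lost without some libraries outside the comparison: day 1 replicate 2, day 5 replicate 1 or 3, and day 7 replicate 1 or 2. The day 1 call of Sprr2a3 was lost without any of 5 of the 6 libraries compared, all but day 1 replicate 1, and without day 1 replicate 3 its log2 fold change was 1.90.

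The fall of the Sprr2a copies after day 5 was not called. Against day 5, the sum on day 7 had a log2 fold change of -1.66 ± 0.78 (edgeR adjusted p 0.554), and the libraries overlapped. Against day 1, the day 3 sum had 1.64 ± 0.78 (edgeR adjusted p 0.411). In the comparisons of successive times no cornified envelope gene was called, against 0.00584% of all genes on day 3 against day 1, 0.0233% on day 5 against day 3 and 0.00584% on day 7 against day 5. At an unadjusted edgeR p under 0.05 there were 3, 4 and 2 of 44, against 12.8%, 15.1% and 9.18% of all genes tested. DESeq2 called 1 (Sprr2k), 1 (Crnn) and 0, against 2.78%, 3.15% and 0.896% of the genes to which it gave an adjusted p. Every day 3 library lay above every day 1 library for 5 genes (Sprr2a1, Sprr2a2, Sprr2d, Sprr2i and Sprr2k, 11.6% of all genes tested) and below for 1 (Tgm1, 13.2%). From day 3 to day 5 there were 3 above (Crct1, Sprr2b and Sprr4, 9.72%) and 2 below (Sprr1b and Sprr2h, 11.9%). From day 5 to day 7 there was none in either direction (5.68% and 5.46%).

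The stressed keratinocyte keratins Krt6a, Krt6b, Krt16 and Krt17 are set beside the Sprr2a copies here. Their sum was 364 to 2206 CPM at day 0, 2799 to 5717 CPM on day 1, 5463 to 7059.8 CPM on day 3, 3326 to 4202 CPM on day 5 and 1058 to 3095 CPM on day 7. None of these 4 keratins was called against day 0. Basal keratinocyte genes, 5 of them, summed to 2258 to 4613 CPM at day 0 and 6724 to 9014 CPM on day 3, and Krt14 was called (log2 fold change 1.87, edgeR adjusted p 0.046). Neutrophil genes, 6 of them, summed to 58.0 to 201 CPM at day 0 and 807 to 1274 CPM on day 1, when all 6 were called. The part of these cell markers in the Sprr2a levels was not tested. Within libraries, the log2 ratio of Sprr2a counts to counts of the suprabasal keratins Krt1 and Krt10 was -5.43 ± 1.24 (SD, n = 3) at day 0 and -1.10 ± 0.66 on day 3. Relative to the basal keratins Krt5 and Krt14 it was -5.34 ± 1.41 and -2.57 ± 0.19. The day 3 libraries lay above those of day 0 in both ratios.

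The 8 other Sprr2 genes were far less abundant. Their sum was 39.4, 1.54 and 5.20 CPM at day 0, 45.7, 38.8 and 54.8 CPM on day 1, 98.2, 51.3 and 52.5 CPM on day 3, 107, 45.9 and 23.7 CPM on day 5 and 56.8, 23.5 and 112 CPM on day 7. Day 0 replicate 1 stood with the libraries of later days here. Sprr2d, which reached the highest level of them, had 8.04, 0.177 and 1.43 CPM at day 0, 9.86, 8.04 and 13.7 CPM on day 1, 44.1, 18.6 and 18.9 CPM on day 3, 43.3, 11.5 and 10.8 CPM on day 5 and 17.8, 7.57 and 39.5 CPM on day 7. Its libraries of days 1, 3 and 5 lay above day 0, and its day 3 log2 fold change of 3.07 ± 1.04 was not called (edgeR adjusted p 0.181). Sprr2h had 14.2, 0.911 and 2.12 CPM at day 0, 19.3, 14.7 and 26.3 CPM on day 1, 27.6, 21.9 and 21.5 CPM on day 3, 20.5, 19.5 and 7.21 CPM on day 5 and 16.1, 7.22 and 31.7 CPM on day 7. It lay above day 0 on days 1 and 3, and day 0 replicate 1 was above the lowest libraries of days 5 and 7. Sprr2e, Sprr2f, Sprr2g and Sprr2i reached at most 6.34 to 14.6 CPM.

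Sprr2k and Sprr2b rested on few reads. Sprr2k had 1 count in each day 0 library, 10, 3 and 12 counts on day 1, 72, 27 and 41 on day 3, 78, 41 and 18 on day 5 and 73, 31 and 68 on day 7. Every later library lay above day 0, and edgeR called it on day 3 (adjusted p 0.0328), day 5 (0.0174) and day 7 (0.00446). The day 3 call was lost when day 0 replicate 2 or 3 or day 3 replicate 1 or 2 was left out, the day 5 call without day 0 replicate 2 or 3 or day 5 replicate 1, and the day 7 call under no single omission. Pooled over 3 libraries, its day 7 level was 60.3 times that of day 0, with an exact 95% interval of 20.3 to 295 that covers counting error only. Sprr2b had 0, 0 and 3 counts at day 0, 0, 1 and 4 on day 1, 24, 12 and 3 on day 3, 59, 35 and 31 on day 5 and 16, 7 and 66 on day 7. Its libraries of days 3, 5 and 7 lay above day 0, and edgeR called it on day 7 (adjusted p 0.0326). That call was lost without any day 0 library or without day 7 replicate 3, which held most of its day 7 counts and without which its log2 fold change was 3.54 in place of 4.72. The pooled ratio of day 7 to day 0 was 31.2 (10.3 to 154). Both genes had passed the 1 CPM floor through their late libraries, so their rise is partly built into the choice of genes.

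The letters of the AP-1 motif stood in the promoter windows of most other Sprr genes and in none of the 3 Sprr2a windows. The windows ran from 250 bases before to 50 after the annotated start, were taken from RefSeq on build GRCm38.p6, and were found for 41 of the 44 genes. AP-1 sites were searched on both strands as TGANTCA, with any base in the middle, which admits looser matches. These letters stood in 9 of 10 other Sprr windows, 0 of 3 Sprr2a windows, 0 of 20 Lce windows and 6 of 8 single-gene windows (Crnn, Flg, Flg2, Ivl, Lor and Rptn). They stood in 7.81% of 32851 promoters of the same length. The TATA box letters TATAAA stood in 9 of 10 other Sprr windows, 0 of 3 Sprr2a, 4 of 20 Lce and 6 of 8 single-gene windows, against 13.6% of all. The ETS letters CAGGAAG stood in 3 of 3 Sprr2a, 0 of 10 other Sprr, 2 of 20 Lce and 0 of 8 single-gene windows, against 13.3%. The STAT letters TTCNNNGAA, the GRHL letters AACNGGTT, the antioxidant response letters TGACNNNGC and the KLF letters GGGNGTGG stood in 4, 1, 8 and 3 of the 41 windows, against 8.3%, 2.09%, 12.4% and 17.6% of all. The windows of Sprr2a1 and Sprr2a2 were identical over 300 bases, so the 3 Sprr2a windows are only 2 different sequences. Laid side by side without gaps, Sprr2a3 matched Sprr2a1 at 80 of 300 positions, close to its 85 and 86 with Sprr2d and Sprr2e. The Sprr2a1 window matched those of the other Sprr2 genes at 22% to 27% of positions. Such a comparison is sensitive to shifts, and whether the annotated starts of these genes correspond was not tested. Letters missing from the Sprr2a windows may thus lie outside them. A match describes letters and does not show that a factor was bound.

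The 250 bases before the start are shown for Sprr2k, the Sprr2 gene called most often, for Sprr2a2, the most abundant copy, and for Lce1m, the most abundant Lce gene, with the letters of the AP-1, TATA and, in Sprr2a2, ETS motifs in capitals. Their places are chr3:92432332-92432581 on the plus strand, chr3:92250397-92250646 on the plus strand and chr3:93019062-93019311 on the minus strand.
Sprr2k: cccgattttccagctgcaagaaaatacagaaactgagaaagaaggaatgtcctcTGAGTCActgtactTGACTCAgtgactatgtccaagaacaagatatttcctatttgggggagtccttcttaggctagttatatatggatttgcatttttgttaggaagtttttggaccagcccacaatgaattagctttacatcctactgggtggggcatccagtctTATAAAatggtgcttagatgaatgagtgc
Sprr2a2: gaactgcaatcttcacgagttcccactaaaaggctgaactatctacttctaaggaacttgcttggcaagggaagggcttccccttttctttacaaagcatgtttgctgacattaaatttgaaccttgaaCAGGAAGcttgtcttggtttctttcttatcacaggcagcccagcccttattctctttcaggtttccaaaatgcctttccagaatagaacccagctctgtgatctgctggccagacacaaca
Lce1m: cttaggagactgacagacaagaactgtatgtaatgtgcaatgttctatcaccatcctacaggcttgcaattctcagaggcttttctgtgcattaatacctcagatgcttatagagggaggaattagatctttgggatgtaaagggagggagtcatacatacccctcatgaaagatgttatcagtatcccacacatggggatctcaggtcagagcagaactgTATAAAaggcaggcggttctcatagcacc

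In all 7 other Sprr2 genes with a window, an AP-1 match began 193 to 198 bases before the start. In Sprr1a and Sprr1b the nearest matches began 116 and 111 bases before it. Of the matches printed below, only that of Sprr1b has A as its middle base (TGAATCA), and the others have G. The 31 bases around the match, all on chromosome 3 and with the AP-1 letters in capitals, are printed so that these stretches can be compared.
Sprr2b: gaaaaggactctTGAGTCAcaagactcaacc
Sprr2d: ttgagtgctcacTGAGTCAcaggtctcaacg
Sprr2e: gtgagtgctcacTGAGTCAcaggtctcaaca
Sprr2f: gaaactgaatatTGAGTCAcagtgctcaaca
Sprr2h: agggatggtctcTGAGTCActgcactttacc
Sprr2i: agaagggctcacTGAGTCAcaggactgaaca
Sprr1a: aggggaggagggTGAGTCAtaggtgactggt
Sprr1b: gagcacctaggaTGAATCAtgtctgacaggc
They lie at chr3:92316498-92316528 (Sprr2b), chr3:92338935-92338965 (Sprr2d), chr3:92351938-92351968 (Sprr2e), chr3:92364978-92365008 (Sprr2f), chr3:92385475-92385505 (Sprr2h) and chr3:92407786-92407816 (Sprr2i) on the plus strand, and at chr3:92485979-92486009 (Sprr1a) and chr3:92438872-92438902 (Sprr1b) on the minus strand. Over the whole windows, Sprr2d matched Sprr2e at 264 of 300 positions and Sprr2i at 215, while Sprr2b matched Sprr2f at 93.

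Sprr1a and Sprr1b code for bridging proteins made early in squamous differentiation and after injury. Sprr1a was the most abundant Sprr gene at day 0, with 380.0, 160.0 and 199 CPM, and had 277, 242 and 363 CPM on day 1 and 427, 269 and 335 CPM on day 3. It had 410.4, 907 and 318 CPM on day 5 and 345, 322 and 1204 CPM on day 7, with both outlying values in the hair-rich libraries. It was not called at any time. Sprr1b had 81.1, 4.05 and 4.41 CPM at day 0, 90.4, 58.5 and 171 CPM on day 1, 188, 179 and 139 CPM on day 3, 105, 86.6 and 56.1 CPM on day 5 and 112, 35.6 and 86.2 CPM on day 7. Day 0 replicate 1 had 18.4 times the higher of the other day 0 libraries and lay inside the range of the later days. With all libraries the day 3 log2 fold change of Sprr1b was 2.50 ± 0.99 (edgeR adjusted p 0.242), and without day 0 replicate 1 it was 5.32 ± 0.61 (adjusted p 7.06e-04). Leaving out a day 0 library for its high level favours such a rise. Sprr4, next to Sprr1a on the chromosome, had 73.4, 26.0 and 38.5 CPM at day 0, 49.8, 59.6 and 82.7 CPM on day 1, 84.9, 23.2 and 91.5 CPM on day 3, 114, 136 and 119 CPM on day 5 and 77.7, 125 and 245 CPM on day 7. All day 5 and day 7 libraries lay above day 0, and the day 7 log2 fold change of 1.70 ± 0.53 had an edgeR adjusted p of 0.0678.

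The makeup of the Sprr counts differed between day 0 and day 3. The 2 Sprr1 genes held 66.6% ± 11.3 (SD, n = 3) of Sprr counts at day 0 and 28.0% ± 3.19 on day 3, and the Sprr2a copies held 19.4% ± 14.2 and 64.9% ± 2.80. On day 7 the shares were 54.4% ± 10.1 and 28.0% ± 11.6. The day 0 and day 3 ranges did not overlap for either group, while those of days 1, 5 and 7 overlapped day 0 for both. On day 5 the hair-rich replicate 2 had 66.2% Sprr1 and 21.8% Sprr2a.

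The 14 Lce1 genes are the largest block of late envelope genes, and as a sum they lay below day 0 on day 1 and overlapped it later. Their sum was 988, 757 and 695 CPM at day 0 and 615, 583 and 675 CPM on day 1, when every library lay below day 0. Taken singly, only 2 of the 14 genes (Lce1a2 and Lce1m) did so on day 1, against 18% of all genes. The sum leans on Lce1m, which held 40.1% to 53.8% of Lce counts at day 0. It was 685, 293 and 1163 CPM on day 3, 1152, 719.9 and 1359 CPM on day 5 and 913, 1203 and 770.1 CPM on day 7. The day 3 libraries spread widely, and day 3 replicate 2 was the lowest of all 15 libraries for 9 of the 14 genes. Lce1m, which lies apart from the others beyond Crct1, led with 421, 413 and 309 CPM at day 0, 277, 266 and 172 CPM on day 1, 199.9, 77.0 and 413 CPM on day 3, 278, 223 and 460.2 CPM on day 5 and 299, 455 and 174 CPM on day 7. It was the only Lce gene with its highest mean at day 0, and its share of Lce counts was 45.8% ± 7.12 at day 0 and 28.2% ± 7.37 on day 7. Lce1a1 had 110.0, 67.7 and 77.8 CPM at day 0, 68.3, 59.8 and 84.3 CPM on day 1, 85.5, 36.7 and 139.9 CPM on day 3, 149, 92.1 and 163 CPM on day 5 and 114, 149 and 112 CPM on day 7. Its day 7 libraries lay just above those of day 0.

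Against day 0, 6 of 14 Lce1 genes had a positive log2 fold change on day 1, 10 on day 3, 13 on day 5 and 13 on day 7, and none was called. For 8 of 14 every day 7 library lay above every day 0 library, against 13.9% of all genes. The widest difference among them belonged to Lce1g, with log2 fold changes of 1.94 ± 0.59 on day 5 (edgeR adjusted p 0.119) and 1.72 ± 0.58 on day 7 (adjusted p 0.0881). The Lce1 genes share 0.926% to 58.8% of their 31-base stretches with transcripts of other genes (median 37.3%), so reads may be split among them too. Lce6a, a lone member between Ivl and Lce1, had 20.5, 10.05 and 13.1 CPM at day 0, 12.3, 9.76 and 24.9 CPM on day 1, 14.7, 8.03 and 23.1 CPM on day 3, 34.2, 21.7 and 34.3 CPM on day 5 and 33.2, 40.0 and 39.6 CPM on day 7. Its day 5 and day 7 libraries lay above day 0, with an edgeR adjusted p of 0.0617 on day 7.

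The 6 Lce3 genes are known for induction when the skin barrier is disrupted, and here they were far less abundant than the Lce1 genes. Their sum was 39.9, 0.835 and 3.69 CPM at day 0, 22.3, 17.8 and 32.1 CPM on day 1, 34.9, 20.3 and 30.2 CPM on day 3, 80.4, 33.3 and 11.7 CPM on day 5 and 74.7, 58.4 and 49.0 CPM on day 7. Day 0 replicate 1 was higher than every day 1 and day 3 library, while the other day 0 libraries were lower than all later ones. Lce3c had 12.6, 0.304 and 1.27 CPM at day 0, 8.65, 6.23 and 9.90 CPM on day 1, 10.8, 6.47 and 9.08 CPM on day 3, 23.9, 9.86 and 4.67 CPM on day 5 and 20.1, 17.6 and 14.9 CPM on day 7. Lce3d had 12.6, 0.228 and 0.476 CPM at day 0, 7.61, 5.51 and 7.52 CPM on day 1, 7.98, 4.79 and 6.78 CPM on day 3, 15.99, 8.35 and 2.38 CPM on day 5 and 17.6, 12.5 and 11.9 CPM on day 7. For 5 of 6 Lce3 genes, every day 7 library lay above every day 0 library, and Lce3d was the exception. All 6 had positive log2 fold changes at each later time, with a median of 2.18 on day 7, and none was called with all libraries.

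Day 0 replicate 1 divided the genes. In 13 of 44 its level was at least 4 times the higher of the other day 0 libraries, which was true of 0.922% of all genes tested. The 13 were all 6 Lce3 genes, Sprr1b and 6 of the 8 other Sprr2 genes. None of the 3 Sprr2a copies, the 14 Lce1 genes or the 9 single genes did so. Sprr2a2 in that library, at 33.7 CPM, was the lowest of all 15, although Krt6b stood at 553 CPM there against 17.5 and 57.8 CPM in the other day 0 libraries. Without day 0 replicate 1, edgeR called 9, 10, 8 and 12 of the 44 genes on days 1, 3, 5 and 7 and 13 over the course, all higher than day 0 where a direction applies. Of all genes tested in that fit, 13.8%, 3.61%, 2.84% and 6.31% were called on those days and 17.1% over the course. Of the 13 genes high in replicate 1, 10 held fewer than 10 counts in day 0 replicate 2. The 13 were picked by their high level in replicate 1, so leaving it out favours calls among them. These counts are therefore no independent support for a rise. The genes called on day 1 were Lce3c, Lce3d, Lce3f, Sprr1b, Sprr2d, Sprr2e, Sprr2f, Sprr2g and Sprr2h, all among the 13. Sprr2a3 was no longer called on day 1. Keeping only replicate 1 at day 0, none of the 44 was called at any time, and only Sprr2k changed over the course.

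**Figure D3:**
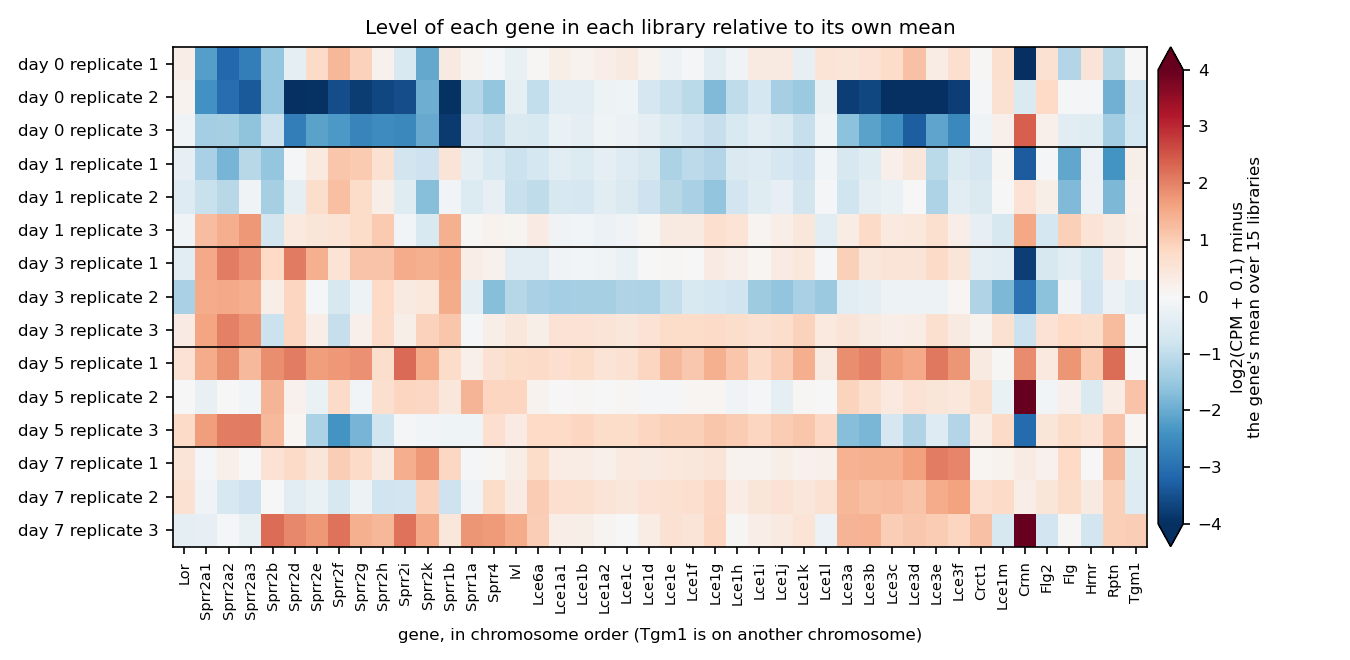
Level of the 44 genes (columns, in chromosome order) in each of 15 libraries (rows), as log2(CPM + 0.1) minus the gene's mean, with colours saturating beyond 4 in either direction. Day 0 replicate 1 is near the libraries of later days for Sprr1b, 6 other Sprr2 genes and the 6 Lce3 genes, and with the other day 0 libraries for Sprr2a1, Sprr2a2 and Sprr2a3.

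Loricrin and involucrin, the bulk and the scaffold proteins of the envelope, were not called. Lor had 756, 689 and 562 CPM at day 0, 500.2, 437 and 561 CPM on day 1, 459.6, 253 and 779 CPM on day 3, 939, 616 and 1070.3 CPM on day 5 and 898, 950.2 and 489 CPM on day 7. Its day 1 libraries all lay below day 0, by a narrow margin, and its log2 fold change was -0.42 ± 0.36 on day 1 (edgeR adjusted p 0.476). Ivl had 85.5, 79.8 and 71.0 CPM at day 0, 58.0, 56.8 and 114 CPM on day 1, 76.7, 47.5 and 144 CPM on day 3, 175, 192 and 133 CPM on day 5 and 126, 133 and 292 CPM on day 7. All its day 5 and day 7 libraries lay above day 0, with log2 fold changes of 1.08 ± 0.42 (edgeR adjusted p 0.191) and 1.22 ± 0.42 (adjusted p 0.0892). Crct1 changed over the course (edgeR adjusted p 0.0425). It had 261, 244 and 225 CPM at day 0, 160.5, 171 and 201 CPM on day 1, 192, 110.2 and 279 CPM on day 3, 326, 395 and 310.1 CPM on day 5 and 269, 399.9 and 567 CPM on day 7. Every day 1 library of Crct1 lay below day 0 and every day 5 and day 7 library above it, while no comparison with day 0 alone was called. The call over the course was lost in 14 of 22 alternatives.

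**Figure D4:**
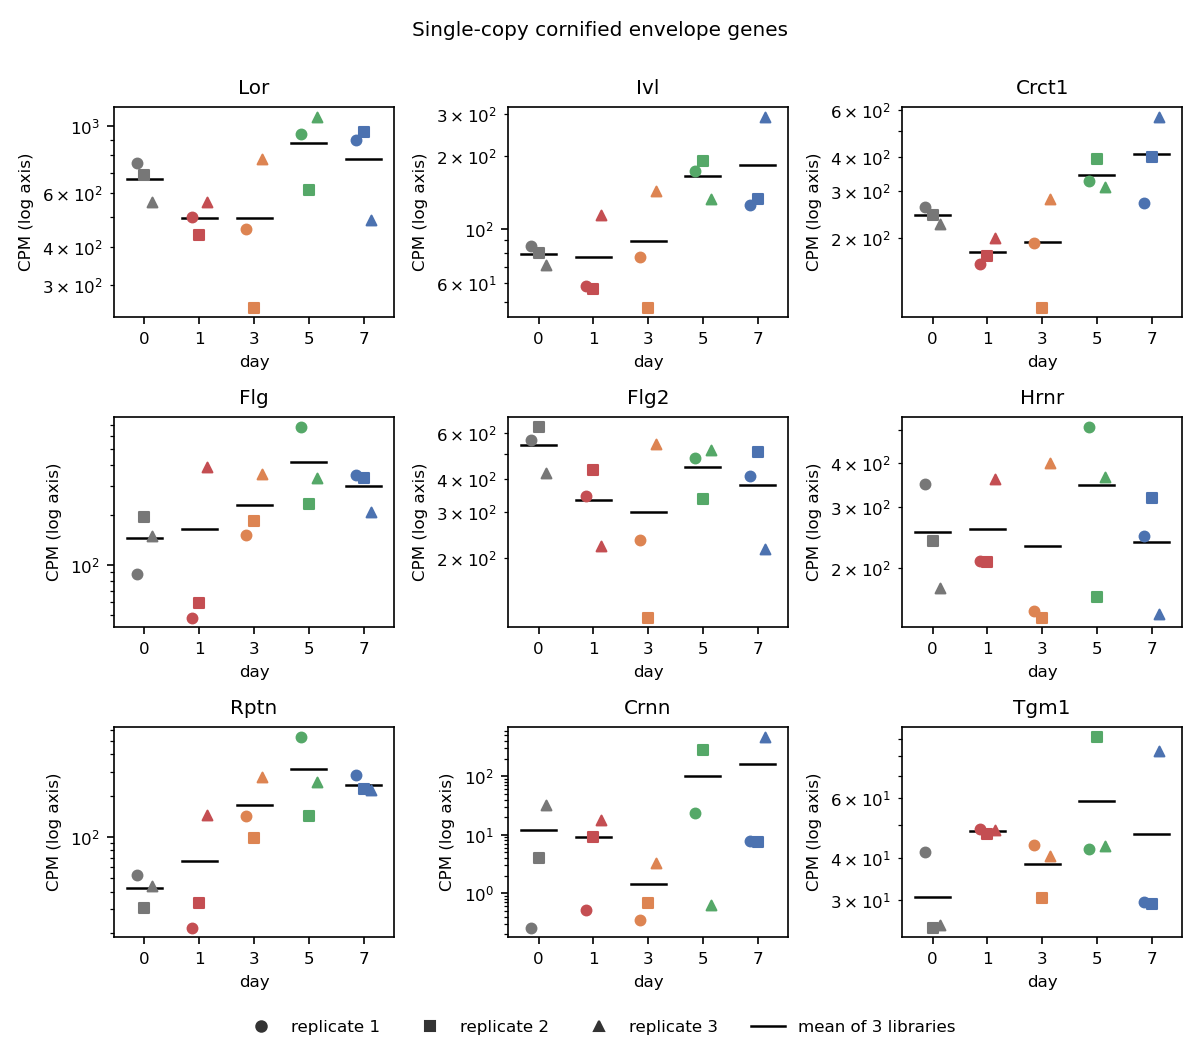
CPM (log axes) of the 9 single genes in each library by day, with 1 symbol per replicate and a bar at the mean of 3. Rptn runs from 30.2 to 52.7 CPM at day 0 and from 221 to 281 CPM on day 7, and the highest Crnn and Tgm1 values are those of day 5 replicate 2 and day 7 replicate 3.

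Among the S100 fused-type genes, only repetin (Rptn) was called against day 0, and that call was not stable. Rptn had 52.7, 30.2 and 43.8 CPM at day 0, 21.9, 33.1 and 146 CPM on day 1, 143, 97.8 and 274 CPM on day 3, 540.2, 142 and 249.8 CPM on day 5 and 281, 222 and 221 CPM on day 7. From day 3 on, all libraries lay above day 0, and on day 7 the log2 fold change was 2.52 ± 0.69 (edgeR adjusted p 0.0483). The day 7 call of Rptn was lost when any library of day 0 or day 7 was left out, with log2 fold changes between 2.32 and 2.71. It was also lost without day 1 replicate 2, any day 3 library or day 5 replicate 3. Filaggrin (Flg), the precursor of the keratin-bundling and moisture-binding filaggrin units, had 88.4, 195 and 149 CPM at day 0, 48.1, 58.7 and 388 CPM on day 1, 151, 184 and 352 CPM on day 3, 683, 234 and 336 CPM on day 5 and 349, 334 and 209 CPM on day 7. Its day 5 and day 7 libraries lay above day 0, and its day 5 log2 fold change was 1.53 ± 0.72 (edgeR adjusted p 0.259).

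Flg2 and Hrnr, filaggrin's nearest relatives, overlapped day 0 on days 5 and 7, and their difference from Flg was not tested. Flg2 had 562, 635 and 422 CPM at day 0, 345, 432 and 223 CPM on day 1, 235, 119 and 543 CPM on day 3, 483, 337 and 515 CPM on day 5 and 412, 509.8 and 217 CPM on day 7. Its mean was highest at day 0, and its log2 fold change lay between -0.85 and -0.28. Hrnr had 349, 238 and 175 CPM at day 0, 209, 208 and 361 CPM on day 1, 150.2, 144 and 399 CPM on day 3, 509.9, 165 and 364 CPM on day 5 and 247, 318 and 148 CPM on day 7, and all times overlapped. The mean of Hrnr was highest on day 5, at 346 ± 173 CPM (SD, n = 3), against 254 ± 87.8 CPM at day 0. Neither gene was called.

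Crnn and Tgm1 had their highest values in the 2 hair-rich libraries. Cornulin (Crnn) had 0.261, 4.02 and 32.4 CPM at day 0, 0.517, 9.09 and 18.0 CPM on day 1, 0.353, 0.696 and 3.33 CPM on day 3, 23.2, 275 and 0.630 CPM on day 5 and 7.78, 7.40 and 475 CPM on day 7. Tgm1, which forms the cross-links of the envelope, had 41.6, 24.8 and 25.3 CPM at day 0, 48.7, 46.8 and 48.2 CPM on day 1, 43.7, 30.2 and 40.5 CPM on day 3, 42.3, 91.5 and 43.4 CPM on day 5 and 29.5, 29.1 and 82.9 CPM on day 7. Day 5 replicate 2 and day 7 replicate 3 were the 2 highest of 15 for Crnn, Ivl, Sprr1a, Sprr4 and Tgm1, which is 5 of 44 genes against 14.6% of all genes tested. The hair gene Tchh stood at 5270 and 6031 CPM in those libraries and at no more than 497 CPM elsewhere, and its part in these values was not tested. Every day 1 library of Tgm1 lay above day 0, and without the 2 hair-rich libraries its day 1 log2 fold change of 0.65 ± 0.19 was called (edgeR adjusted p 0.0352), against an adjusted p of 0.326 with all libraries.

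The balance of Sprr to Lce counts within a library needs no scaling between libraries. The log2 ratio of summed Sprr to summed Lce counts was -0.78, -1.73 and -0.92 at day 0, -0.22, -0.13 and 1.10 on day 1 and 1.54, 2.18 and 0.67 on day 3. It was 0.59, 0.96 and 0.40 on day 5 and -0.08, -0.85 and 1.19 on day 7. Lce counts exceeded Sprr counts in all 3 day 0 libraries, and Sprr counts exceeded Lce counts in all 6 libraries of days 3 and 5. The means were -1.14 ± 0.51 (SD, n = 3) at day 0, 0.25 ± 0.74 on day 1, 1.46 ± 0.76 on day 3, 0.65 ± 0.28 on day 5 and 0.08 ± 1.03 on day 7. All libraries of days 1, 3 and 5 lay above all of day 0, while day 7 overlapped it. No p is given, because the genes were chosen with earlier results of these data known.

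Leaving out the Sprr2a rows lowered the day 3 difference from day 0 from 2.60 to 1.42 and that of day 5 from 1.79 to 0.92. On day 7 the difference of 1.22 fell to 0.67 without the hair-rich day 7 replicate 3. The log2 ratio of Sprr1 to Lce was -1.74 ± 0.52 at day 0, -0.77 ± 0.29 on day 1 and -0.38 ± 0.93 on day 3, and only the day 1 libraries stood wholly above day 0. The log2 ratio of Lce counts to the suprabasal keratins Krt1 and Krt10 was -1.62 ± 0.11 at day 0, -1.68 ± 0.64 on day 1, -1.94 ± 0.72 on day 3, -1.57 ± 0.16 on day 5 and -1.64 ± 0.49 on day 7, and every time overlapped day 0.

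**Figure D5:**
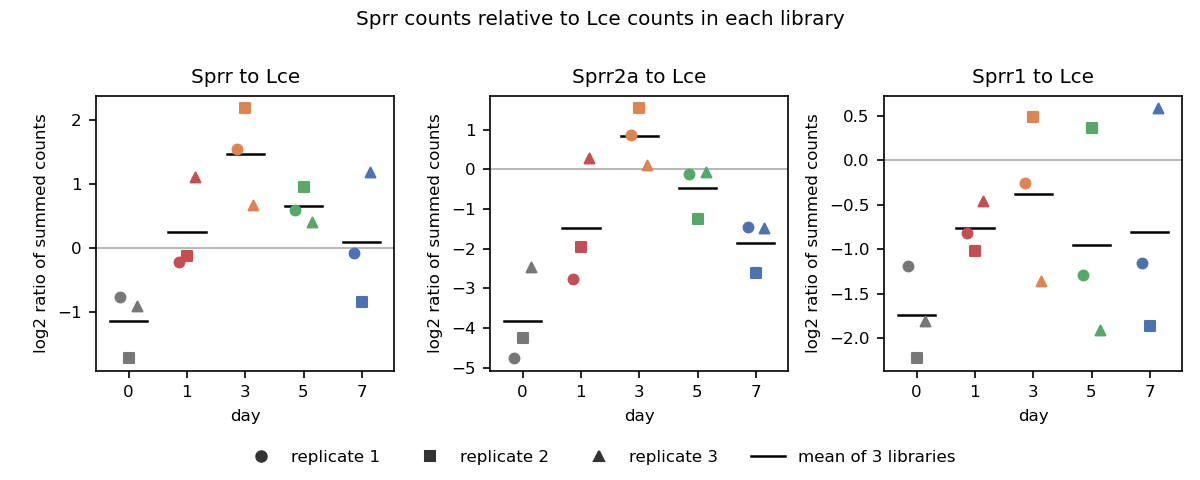
Log2 ratio of summed counts within each library by day, for all Sprr, the Sprr2a copies and the Sprr1 genes over all Lce, with 1 symbol per replicate and a bar at the mean of 3. The Sprr to Lce ratio is below 0 in the 3 day 0 libraries and above 0 in the 6 libraries of days 3 and 5.

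Other genes of cornification mostly stayed uncalled. Of all genes tested, 7.58%, 0.788%, 0.502% and 7.05% were called on days 1, 3, 5 and 7 against day 0, and 13.9% over the course. Of 14 scaffold and desmosome-linked genes, none was called in any comparison with day 0, and the smallest p on day 3 belonged to the desmoglein Dsg1b (log2 fold change 1.10, edgeR adjusted p 0.106). Of 11 transglutaminases and cornification enzymes, Casp14, the caspase of the cornifying layers, changed over the course (edgeR adjusted p 0.0397), from 35.5 ± 5.61 CPM at day 0 to 122 ± 30.9 CPM on day 5. Of 16 barrier lipid genes, 1 rose and 2 fell on day 1. Ugcg, which makes glucosylceramide, went from 72.3 ± 5.62 to 149.7 ± 31.6 CPM (edgeR adjusted p 0.00713), the lipoxygenase Aloxe3 from 20.4 ± 2.41 to 12.2 ± 0.920 CPM (adjusted p 0.0475) and the sphingomyelinase Smpd3 from 73.3 ± 25.1 to 19.1 ± 3.91 CPM (adjusted p 0.00673). Smpd3 was also lower on days 3 and 7, and 4 of the 16 barrier lipid genes were called over the course. Of 25 regulators of terminal differentiation, the AP-1 subunit Fosl2 rose on day 1 (log2 fold change 0.59, edgeR adjusted p 0.0456) and the ETS factor Elf3 on day 7 (1.64, adjusted p 0.0266), while Junb, another AP-1 subunit, changed over the course (adjusted p 0.0349), from 159.98 ± 116 CPM at day 0 to 413 ± 74.4 CPM on day 1. Over the course 3 of the 25 regulators were called. Of 11 tested genes of the same chromosomal complex outside the chosen set, none was called.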

How the data were processed

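Skin RNA of 15 libraries was compared over 5 times. The authors deposited estimated counts for each gene symbol, and the submitters' processing notes name kallisto 0.43. The sources used here do not give its index, annotation, genome build or use of strand. The estimated counts were already whole numbers. Pseudoalignment splits reads among near-identical transcripts, which touches the Sprr2a, Lce1 and Lce3 genes most. Each file held 30307 rows, of which 26 carried calendar dates in place of symbols, held 0.155% to 0.179% of the counts and were left out.

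One quasi-likelihood model with 5 groups was fitted over all libraries in edgeR 4.0.16 (robust, TMM scaling, limma 3.58.1, R 4.3.3) on the 17136 genes that passed edgeR's filter (minimum count 10). Tests were 7 contrasts (two-sided) and an F test of change over time, with Benjamini-Hochberg adjustment over these genes and calls at an adjusted p under 0.05. The procedure was tested on simulated data. The simulation gave every gene the same spread, smaller than the common spread of these data, and changed only genes with many counts. It does not cover genes with few counts, such as Sprr2b and Sprr2k. The common biological coefficient of variation was 30.9%, which exceeds counting error for most of the chosen genes. For 12 of them at least 1 library held fewer than 10 counts, where counting error is as large as that spread or larger. CPM values are scaled by TMM. No 2 libraries held identical counts.

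The chosen genes and the gene lists were fixed with earlier results of these data known. Any chosen gene may be named, with values in every library for those called and for the most abundant of each group. From the other lists, called genes or those with the smallest p may be named. Alternatives were DESeq2 1.42.0, its size factors, no filter, a replicate block, summed Sprr2a copies, and leaving out libraries. Promoters came from RefSeq (GRCm38.p6), and shared 31-base stretches were counted in GENCODE M21 transcripts.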

Additional observations from a re-analysis of the deposited data

How the results depend on the processing

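No fold change of a called gene turned sign under an alternative. Counted over these genes and alternatives, 160 calls held and 92 were lost. The count of genes called, 1, 3, 1 and 3 on days 1, 3, 5 and 7 against day 0 and 7 over the course, moved more. DESeq2 called 4, 6, 12 and 12 on days 1, 3, 5 and 7, 1 on day 3 against day 1, 1 on day 5 against day 3 and 16 over the course. The share of all genes that DESeq2 called against day 0 and over the course is not given. These DESeq2 counts therefore cannot show whether the chosen genes were called more often than other genes. Without the filter, 1 was called on day 3. With the Sprr2a copies summed, 0 were called on day 1 and 1 on day 3. Without day 5 replicate 2 and day 7 replicate 3, the counts were 4 on day 1, 4 on day 5 and 1 on day 7. Where day 0 was represented by replicate 1 alone, an alternative chosen after seeing the data, they were 0 on each of the 4 days and 1 over the course, a lone library being assumed to vary like the other groups. With Sprr2b and Sprr2k left out of the set, also chosen after seeing the data, they were 0 on day 5 and 1 on day 7. DESeq2's size factors changed no call. The share of all genes called without day 5 replicate 2 and day 7 replicate 3 is not given either.

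Leaving out 1 library at a time gave 0 to 9 on day 1, 0 to 10 on day 3, 0 to 8 on day 5, 1 to 12 on day 7, 0 to 0 in each comparison of successive times and 2 to 13 over the course. The highest counts came without day 0 replicate 1, an omission that favours calls of the genes high in it. Day 0 replicates 2 and 3 each took the counts to 0, 0, 0 and 1 on days 1, 3, 5 and 7. The cause was not tested.

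Replicate numbers 1 to 3 recur at each time with no label that ties them. Deviations of same-numbered libraries correlated between -0.68 and 0.45 over 30 pairs, 12 of them above 0.1, and 4 of 15 libraries correlated best with their own number, so the numbers were not taken as pairs. A replicate block gave 1, 4, 2 and 6 calls on days 1, 3, 5 and 7 and 8 over the course. The share of all genes called with the block is not given, so these counts lack a background.

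The Sprr to Lce difference from day 0, on the log2 scale, was 1.39, 2.60, 1.79 and 1.22 on days 1, 3, 5 and 7. As a difference of mean log2 CPM it was 1.51 on day 3 and 0.80 on day 5, and without the Sprr2a rows 1.42 and 0.92. Leaving out 1 library gave 0.96 to 1.62, 2.24 to 3.00, 1.49 to 1.97 and 0.67 to 1.69.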
